A study of Mus musculus with 16 samples.

Results

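The mitochondrial ribosome is built from proteins encoded in the nucleus and RNAs encoded in the mitochondrial genome, and the genes of its proteins are named Mrpl for the large subunit and Mrps for the small one. The genes described here are those whose symbol in the array's annotation is Mrpl or Mrps followed by a number. They had 110 of the 25697 probes on the array and came to 76 of 16593 gene symbols, each read from its probe with the highest mean over all 16 arrays. The arrays were Illumina bead arrays of total RNA from whole colon of male C57Bl/6J mice. The colons came from 6 samples given dextran sulfate sodium (DSS) with methylthioadenosine (MTA), 6 given DSS and 4 untreated controls. DSS, which mice usually receive in drinking water, damages the colonic epithelium and is a common way to bring on colitis, and MTA is a sulfur nucleoside of the polyamine and methionine salvage pathways. The labels give neither dose, time nor age, and they do not say that the samples of a group are separate animals, so p-values measure the spread between these samples.

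Mitochondrial ribosomes translate the few messages of the mitochondrial genome, all of which code for subunits of the respiratory chain and ATP synthase. Many of their proteins descend from those of the bacterial ribosome, and others have no bacterial counterpart and were added during the evolution of mitochondria. In the colon, the epithelium lining the lumen draws much of its energy from oxidising butyrate in mitochondria, which rests on a working respiratory chain.

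By role, 49 genes code for large subunit proteins and 26 for small subunit proteins, and 47 have a bacterial counterpart whereas 28 are specific to mitochondria. The remaining gene, Mrps36, is named as a ribosomal protein but its product is known as a component of the 2-oxoglutarate dehydrogenase complex. Tests covered the 9770 features left after the dimmer 50% of probes were dropped, and 70 of the 76 genes were among them. The other 6, Mrpl19, Mrpl21, Mrpl32, Mrpl45, Mrps14 and Mrps36, had mean log2 intensities of 5.70 to 6.16 and in a fit of all probes differed between DSS and control by -0.07 to 0.06.

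Promoters of 4 genes are shown. Of these, 3 belong to the 6 genes that were lower with DSS. The fourth holds the starts of a pair of members read in opposite directions. The other genes lower with DSS, Mrpl4, Mrpl15 and Mrpl48, are not shown, so the printed promoters are a selection. Each stretch runs from 170 bases before the gene's start to 30 after it and was taken from RefSeq on mouse build GRCm38.p6. Capitals mark matches to words bound by factors known for promoters of mitochondrial genes, on either strand: CCGGAAG for the ETS family including GABP, GCGC and TGCGC with any base between them for NRF1, AAGATGGC for YY1 and GGGGCGGG for SP1, with TATAAA for the TATA box.
Mrpl49, chr19:6057726-6057925, minus strand: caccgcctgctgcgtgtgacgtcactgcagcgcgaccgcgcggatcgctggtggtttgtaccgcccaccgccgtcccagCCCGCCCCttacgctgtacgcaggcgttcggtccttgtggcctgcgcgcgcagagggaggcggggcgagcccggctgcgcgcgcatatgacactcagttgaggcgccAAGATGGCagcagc
Mrps23, chr11:88204218-88204417, plus strand: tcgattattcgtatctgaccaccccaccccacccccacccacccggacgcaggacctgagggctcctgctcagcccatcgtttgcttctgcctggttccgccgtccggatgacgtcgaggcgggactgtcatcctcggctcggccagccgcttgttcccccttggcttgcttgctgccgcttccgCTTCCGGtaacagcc
Mrps9, chr1:42851063-42851262, plus strand: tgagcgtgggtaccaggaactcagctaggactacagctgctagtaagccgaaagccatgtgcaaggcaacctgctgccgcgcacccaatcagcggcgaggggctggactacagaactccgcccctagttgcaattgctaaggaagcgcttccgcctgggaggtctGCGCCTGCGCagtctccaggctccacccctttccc
Mrps11, chr7:78782961-78783160, plus strand: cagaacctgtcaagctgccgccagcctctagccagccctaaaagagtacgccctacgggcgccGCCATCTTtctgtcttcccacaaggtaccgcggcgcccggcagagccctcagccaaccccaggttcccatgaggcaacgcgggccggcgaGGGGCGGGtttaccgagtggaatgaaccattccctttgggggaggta

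The YY1 word of Mrpl49 and the ETS word of Mrps23 lie just after the start, and the NRF1 word of Mrps9 spans it. The window of Mrps11 also holds the start of Mrpl46, which is read from the other strand with 41 bases between the starts. Over the whole windows of 250 bases before to 50 after each start, 67 members had at least 1 RefSeq promoter. The ETS word was found in 26 of these (38.8%), against 19.6% of the 7355 genes of the fit with a promoter and 9.93% of all 27025 genes. The YY1 word was found in 12 members (17.9%, against 5.29% of the genes of the fit) and the NRF1 word also in 12 (17.9%, against 11.2%). The SP1 word (29.9% against 35.1%) and the TATA box (7.46% against 9.8%) were found in smaller shares of the members. A gene counts here if any of its windows holds the word, in the members as in the other genes, and a match is a description of letters. The 25 tested members with the ETS word had a median log2 difference between DSS and control of -0.38, and the 37 without it had -0.41. The medians with and without the word were -0.50 and -0.39 for NRF1 (10 and 52 genes), -0.43 and -0.39 for YY1 (11 and 51), -0.42 and -0.39 for SP1 (19 and 43) and -0.40 and -0.40 for the TATA box (5 and 57). None of these splits was tested.

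The 16 arrays had median intensities of 112.012 to 112.22, so the authors had scaled them to one another, and each array's median correlation with the others was 0.927 to 0.969. All 12 colon epithelium markers with a probe on the array, such as Krt20 and Vil1, were in the brighter part of the probes. DSS 2 had the lowest correlation with the other arrays (0.927), and DSS with MTA 2 the next lowest (0.935). With DSS, 6 of 7 endothelial markers, 4 of 8 fibroblast markers and 3 of 11 leukocyte markers were higher than in control by limma, against 8.68% of all features, with S100a8, a neutrophil calcium-binding protein, higher by 3.93 ± 0.47 (SE, log2). The mean level of the fibroblast list was 0.59 to 1.96 above the control mean on the DSS arrays, against -0.51 to 0.20 on the control arrays. Of 9 smooth muscle markers 1, Acta2, a smooth muscle actin, was higher (0.26 ± 0.08, SE; limma adjusted p = 0.0365) and the list's median difference was 0.26, while none of 3 adipocyte markers passed by limma, nor at an unadjusted p under 0.05 (median -1.07). In whole tissue, fewer cells of a type and less RNA per cell cannot be told apart, and the part of these cells in the results below was not tested.

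The first comparison asked what DSS did to the genes of the mitochondrial ribosome. All 70 tested members had a lower mean with DSS than in control, whereas 57.3% of all features did. The members' median log2 difference was -0.40, against -0.04 over all features, and the single values ran from -0.75 for Mrpl34 to -0.06 for Mrps6. Of the 70, 6 were lower past an adjusted p of 0.05 (limma, Benjamini-Hochberg over 9770 features), which is 8.57% against a background of 5.89% of all features lower. None was higher, against 8.68% of all features. At an unadjusted p under 0.05, 37 members (52.9%) were lower, against 16.1% of all features, and none was higher, against 15.4%. In 12 members (17.1%) every DSS array lay below every control array, against 6.89% of all features. Leaving out 1 array at a time gave 2 members lower without control 3 (2.86%, against 2.7% of all features) to 12 without DSS 1 (17.1%, against 6.13%). Array weights, which count poorly fitting arrays less, gave 31 (44.3%, against 13.3%).

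**Figure D1:**
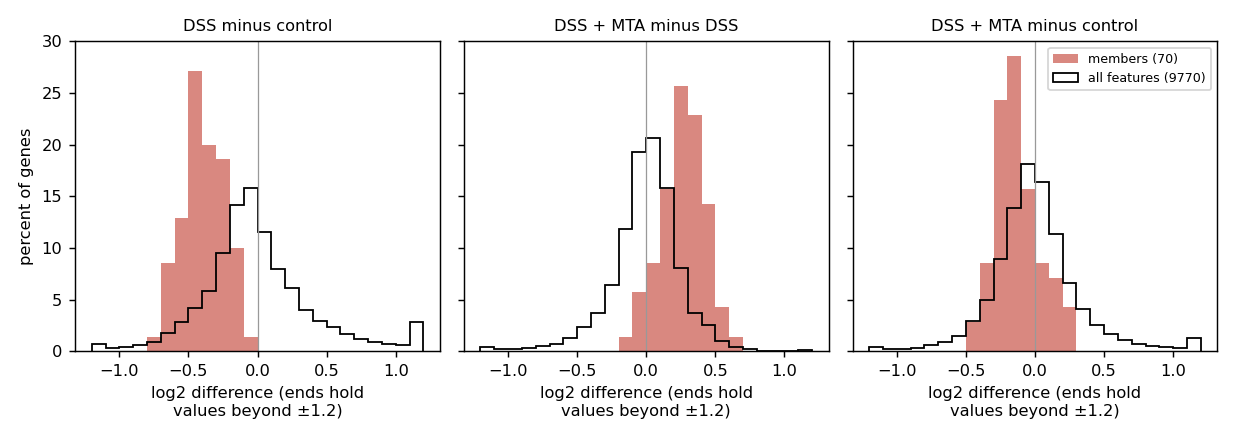
Distribution of log2 differences for the 70 tested members (filled) and for all 9770 features (outline), in percent of genes, for DSS minus control, DSS with MTA minus DSS, and DSS with MTA minus control. The members centre on -0.40, 0.27 and -0.15, and all features on -0.04, 0.01 and -0.02.

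Large and small subunit genes gave similar shares, beside 5.89% of all features lower. Among the 45 tested large subunit genes 4 (8.89%) were lower past the threshold, with a median of -0.39. Among the 25 small subunit genes 2 (8%) were, with a median of -0.42. Genes with a bacterial counterpart had a median of -0.41 (3 of 43 lower, 6.98%), and those specific to mitochondria -0.39 (3 of 27 lower, 11.1%). Neither division was tested for a difference.

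Mrpl49, a large subunit protein found only in mitochondria, had the smallest p. Its log2 intensity was 10.21 at the lowest, 10.49 at the median and 10.69 at the highest among DSS arrays, against 10.95, 10.92, 10.92 and 10.79 on the control arrays. The groups did not overlap. The difference was -0.43 ± 0.11 (SE), or 0.741 of the control level, with an adjusted p of 0.0144 by limma. It kept its call in all 16 fits that left out 1 array each.

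Mrpl4, a large subunit protein of bacterial origin, measured 8.68, 8.94 and 9.20 (lowest, median and highest) with DSS and 9.69, 9.39, 9.41 and 9.32 in control. Every DSS array was below every control array, and the difference was -0.49 ± 0.13 (SE; limma adjusted p = 0.0166). Mrpl15, also of the large subunit and of bacterial origin, measured 7.47, 7.85 and 8.18 with DSS and 8.54, 8.22, 8.28 and 8.35 in control. Its groups did not overlap either, though DSS 1 came close to control 2, and the difference was -0.51 ± 0.16 (SE; limma adjusted p = 0.0477). Of the 16 fits without 1 array, 1 lost the call of Mrpl4 and 12 that of Mrpl15.

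Mrpl48, a mitochondria-specific protein of the large subunit, measured 9.52, 9.92 and 10.12 with DSS, against 10.06, 10.39, 10.39 and 10.38 in control. Control 1 lay among the DSS arrays, below DSS 1 and DSS 5, and the other 3 control arrays lay above all DSS arrays. The difference was -0.40 ± 0.13 (SE; limma adjusted p = 0.0489), and 10 of the 16 fits without 1 array lost this call.

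The small subunit gave the other two calls. Mrps23, a mitochondria-specific protein, measured 9.62, 9.85 and 10.05 with DSS and 10.40, 10.08, 10.32 and 10.21 in control. Mrps9, whose bacterial counterpart contacts the transfer RNA that holds the growing chain, measured 10.06, 10.36 and 10.54 with DSS and 10.92, 10.89, 10.88 and 10.76 in control. In both genes all DSS arrays were below all control arrays, by a narrow gap in Mrps23 and a wider one in Mrps9. The differences were -0.40 ± 0.11 for Mrps23 (SE; limma adjusted p = 0.0208) and -0.53 ± 0.15 for Mrps9 (SE; limma adjusted p = 0.0288), with the call lost in 2 and 6 of the 16 fits without 1 array.

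**Figure D2:**
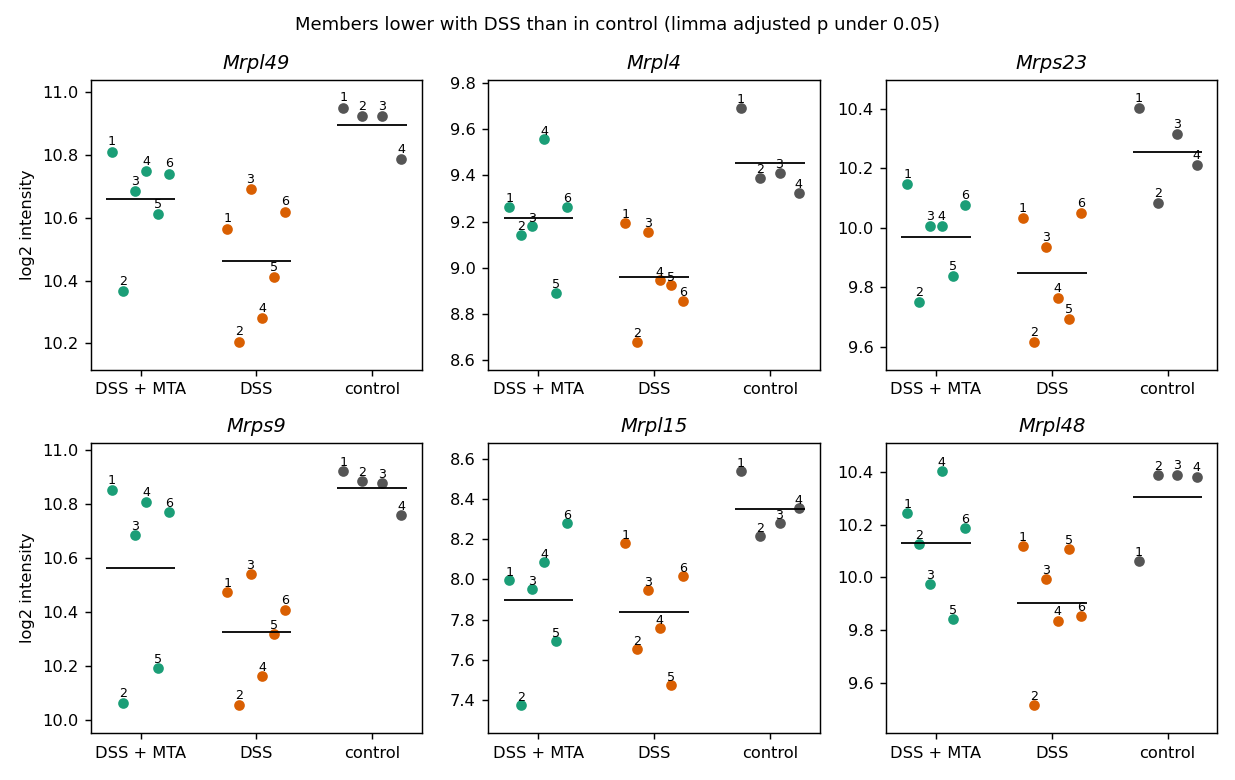
Log2 intensity of the 6 members that were lower with DSS than in control, in DSS with MTA, DSS and control arrays, with the array number beside each point and a line at the group mean. The DSS arrays lie below every control array in 5 of the 6, and in Mrpl48 control 1 (10.06) lies among them.

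Several members missed the threshold by little or in spite of a larger difference. Mrpl35, a large subunit protein of bacterial origin, had a difference of -0.33 ± 0.11 (SE; limma adjusted p = 0.0544) with no overlap of the groups. Mrps30, which despite its symbol sits in the large subunit, had -0.36 ± 0.12 (SE; limma adjusted p = 0.0570), and 5 of 6 DSS arrays were below every control array. Mrpl34, a small protein of the large subunit, had the lowest value of all members, -0.75 ± 0.28 (SE; limma adjusted p = 0.0813). Its DSS arrays ran from 8.93 to 10.56 with a median of 10.23, against 10.65, 10.77, 10.81 and 10.71 in control, so that the groups did not overlap but the DSS arrays were widely spread.

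The called members were among those with little spread on the DSS arrays, which the test itself favours. The 6 called members had a median SD of 0.19 among DSS arrays, and the 64 others 0.39, although their median log2 differences were close at -0.46 and -0.39. Over all tested members the median SD was 0.24 with DSS and MTA, 0.38 with DSS and 0.13 in control. The SD was larger with DSS than in control in 67 of 70 members (95.7%), against 67.1% of all features. It was larger with DSS than with DSS and MTA in 52 members (74.3%), against 44.5% of all features. Mrpl52, a mitochondria-specific large subunit protein, had the widest DSS spread, from 9.70 to 11.89, and it had control arrays from 10.52 to 11.93.

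**Figure D3:**
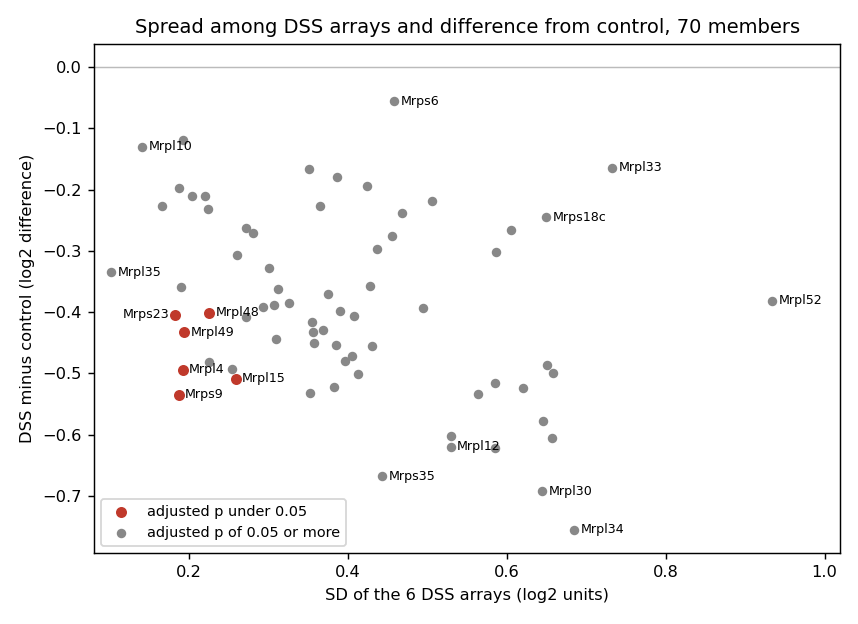
Each point is 1 of the 70 tested members, with the SD of its 6 DSS arrays on the x axis and its DSS minus control log2 difference on the y axis, and members lower past the threshold in red. The 6 called members have SDs of 0.18 to 0.26, and members with larger differences, such as Mrpl34 and Mrpl30, have SDs of 0.68 and 0.64.

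The stalk of the large subunit, which recruits translation factors, is made of Mrpl12 bound to Mrpl10, with Mrpl11 at its base. Mrpl12 measured 10.59, 11.67 and 12.13 with DSS and 12.37, 12.10, 12.14 and 12.07 in control (-0.62 ± 0.26, SE; limma adjusted p = 0.114). Mrpl11 measured 8.42, 8.98 and 9.51 with DSS and 9.57, 9.52, 9.44 and 9.40 in control (-0.45 ± 0.20, SE; limma adjusted p = 0.144). Mrpl10 measured 11.35, 11.55 and 11.72 with DSS and 11.90, 11.72, 11.57 and 11.53 in control (-0.13 ± 0.12, SE; limma adjusted p = 0.491). In Mrpl12 and Mrpl11, 5 of 6 DSS arrays lay below every control array, whereas in Mrpl10 2 did.

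The paralogs Mrps18a, Mrps18b and Mrps18c descend from 1 bacterial protein. Mrps18a is a large subunit protein and the others belong to the small subunit. Mrps18a differed between DSS and control by -0.36 ± 0.19, Mrps18b by -0.22 ± 0.25 and Mrps18c by -0.25 ± 0.27 (SE), and all had limma adjusted p-values of 0.203 or above. Mrps18b had 4 DSS arrays below and 2 above every control array, and Mrps18c had 2 DSS arrays below every control array and 4 above the control mean.

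Mrpl46 and Mrps11, the pair with neighbouring starts, had differences of -0.40 ± 0.18 and -0.41 ± 0.15 (SE; limma adjusted p = 0.148 and 0.0735). Mrps11, a small subunit protein near the platform of the subunit, had all 6 DSS arrays below every control array, from 8.55 to 9.33 against 9.40 to 9.47 in control. Mrpl46, a mitochondria-specific large subunit protein, had 4 DSS arrays below every control array.

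**Figure D4:**
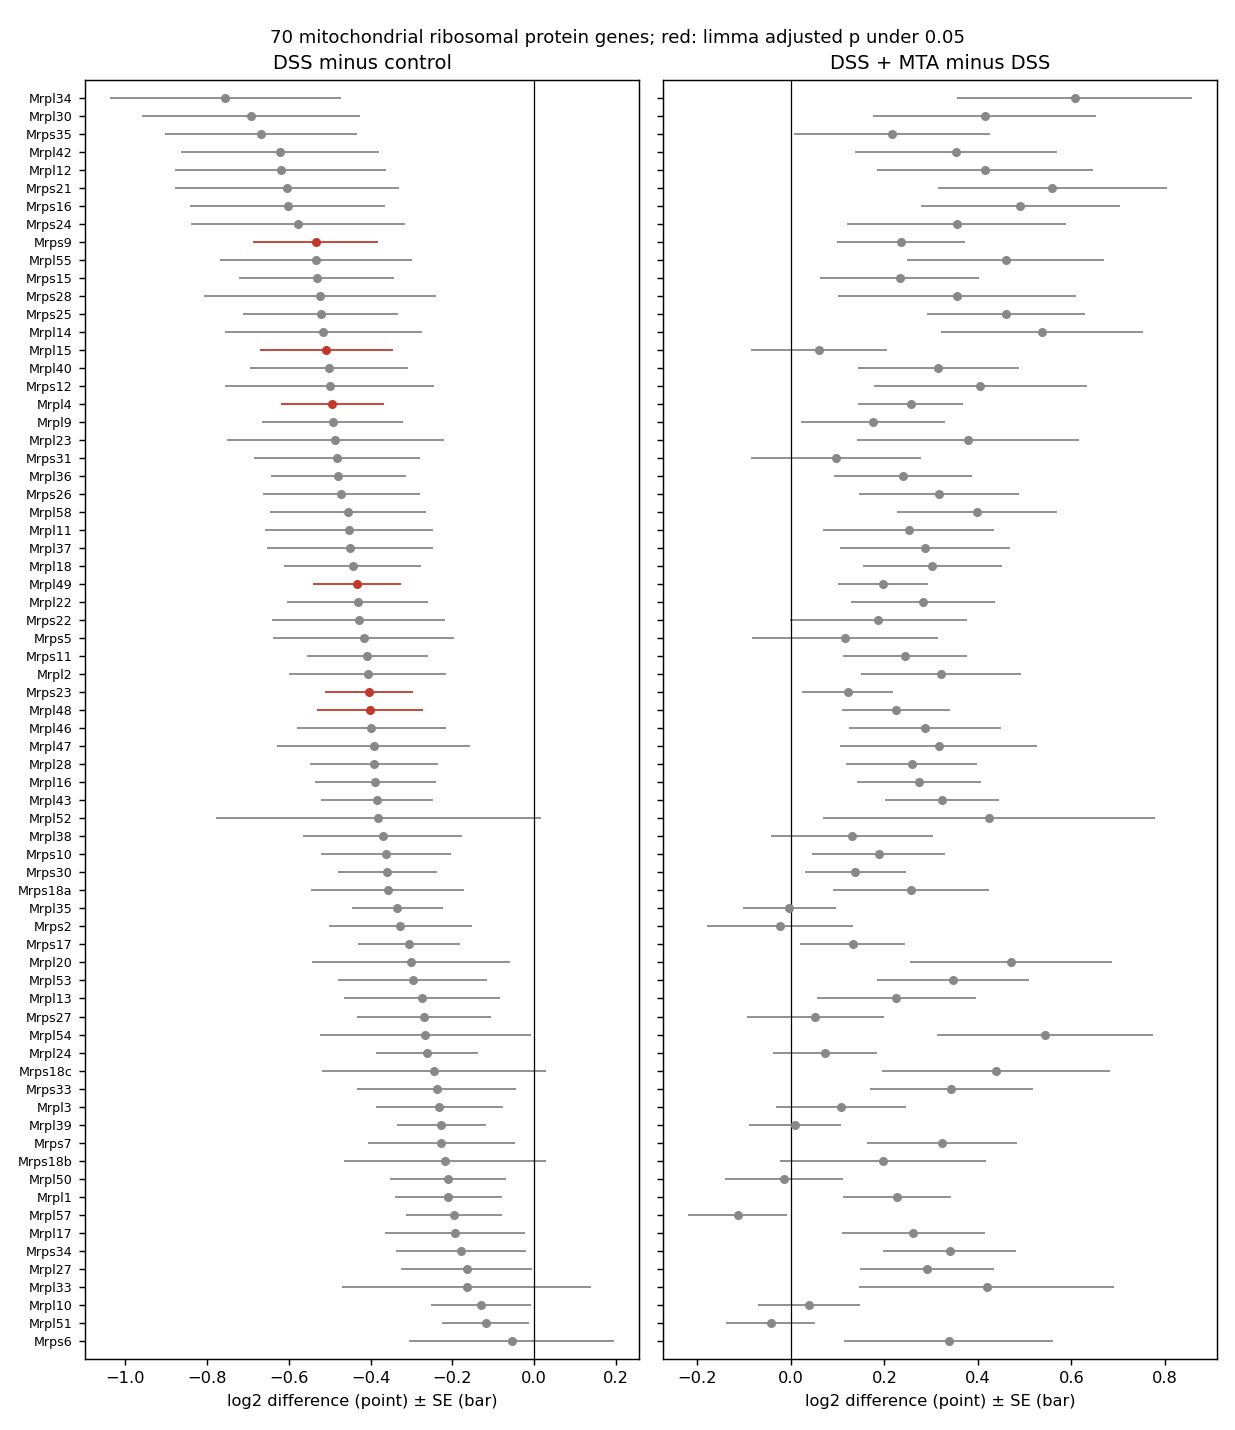
Log2 difference of each of the 70 tested members, as the limma estimate with its SE, for DSS minus control (left) and DSS with MTA minus DSS (right), ordered by the left panel. All values on the left lie below 0 and 6 pass the threshold (red), while on the right 65 lie above 0 and none passes.

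The arrays of the DSS group differed widely among themselves, and the SD was larger among DSS arrays than among control arrays in 67 of the 70 members. Averaged over the 70 tested members and set against the control mean, the log2 level was -0.10, -0.97, -0.04, -0.63, -0.34 and -0.25 on DSS arrays 1 to 6. On the control arrays it was -0.10, 0.00, 0.05 and 0.05. DSS 2 and DSS 4 stood far below, while DSS 1 and DSS 3 were within the range of the control arrays. DSS 2 gave the lowest value of all 16 arrays in 58 of the 70 members, and of the DSS arrays in 64. On DSS 4, all 70 members were below their control mean.

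The same arrays were the lowest in some other gene groups, though not in all. Lists of respiratory chain and cytosolic ribosomal protein genes were taken by the start of the symbol. The first includes ATP synthase and can hold assembly factors, and the second can hold kinases with such symbols. The 81 tested respiratory chain genes averaged -1.16 on DSS 2 and -0.85 on DSS 4. They averaged -0.33 to -0.07 on the other DSS arrays and -0.22 to 0.11 on the control arrays. The 56 tested cytosolic ribosomal protein genes averaged -1.27 on DSS 2 and -0.73 on DSS 4. They averaged -0.30 to -0.02 on the other DSS arrays and -0.33 to 0.17 on the control arrays. Mitochondrial import and folding genes were also lowest on DSS 2 and DSS 4 (-0.91 and -0.53). In genes that charge mitochondrial transfer RNAs, DSS 2 was lowest (-0.57), but DSS 4 (-0.32) lay above DSS 5 (-0.41) and DSS 6 (-0.46). In mitochondrial translation factors DSS 4 (-0.34) lay above DSS 5 (-0.40). RNA quality was not given per sample in the sources used here, and its part in the low values of DSS 2 and DSS 4 was not tested. Without DSS 2 and DSS 4, a choice made after seeing the data, 59 of 70 members remained below 0 against control, the median was -0.20 and no member passed by limma, with 2.89% of all features lower. The 6 members called with all arrays then had differences of -0.44 to -0.29, with adjusted p-values of 0.0635 to 0.170. Without DSS 2 alone 3 were called, Mrpl4, Mrpl49 and Mrps23, with a median of -0.30. These were 4.29% of the members, close to the 4.22% of all features lower in that fit.

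**Figure D5:**
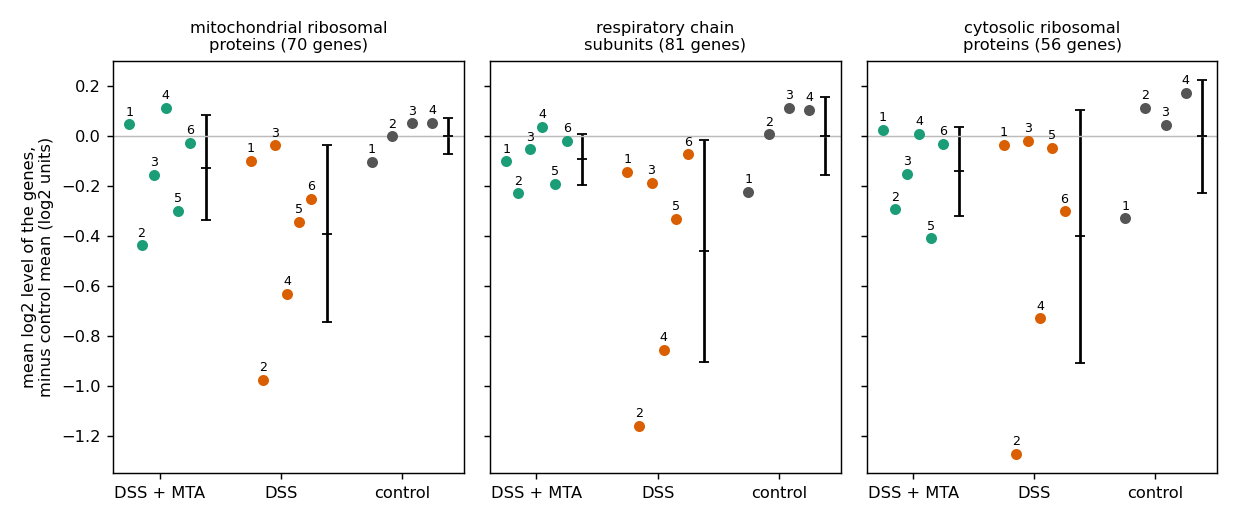
Mean log2 level of the genes of 3 groups on each array, minus the control mean, for DSS with MTA, DSS and control, with array numbers and the group mean and SD beside the points. DSS 2 and DSS 4 lie lowest in the mitochondrial ribosomal proteins (-0.97 and -0.63), the respiratory chain subunits (-1.16 and -0.85) and the cytosolic ribosomal proteins (-1.27 and -0.73).

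The second comparison asked whether MTA given with DSS altered these genes. Of the 70 members, 65 had a higher mean with DSS and MTA than with DSS, whereas 52.6% of all features did. The median log2 difference was 0.27, against 0.01 over all features, and the values ran from -0.11 for Mrpl57 to 0.61 for Mrpl34. No member passed the adjusted threshold by limma, against 0.0614% of all features higher and 0.317% lower. At an unadjusted p under 0.05, 13 members (18.6%) were higher, against 6.5% of all features, and none was lower, against 8.45%. In no member did the groups separate without overlap, against 0.409% of all features higher and 0.502% lower. Because this comparison and the one before share the DSS arrays, a low DSS array moves both in opposite directions.

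Mrps25, a mitochondria-specific small subunit protein, had the smallest p. It measured 8.09, 8.49 and 8.97 (lowest, median and highest) with DSS and MTA, against 7.41, 8.17 and 8.43 with DSS. In 5 of 6 DSS with MTA arrays it was above every DSS array, and the difference was 0.46 ± 0.17 (SE; limma adjusted p = 0.234). Its 3 kept probes gave differences of 0.46, 0.18 and 0.13, so the size depended on the probe.

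Mrpl43, a mitochondria-specific large subunit protein, measured 11.16, 11.35 and 11.44 with DSS and MTA and 10.45, 11.10 and 11.30 with DSS (0.32 ± 0.12, SE; limma adjusted p = 0.242). Mrpl14, a core large subunit protein of bacterial origin, measured 10.87, 11.02 and 11.11 with DSS and MTA and 9.68, 10.68 and 11.18 with DSS (0.54 ± 0.22, SE; limma adjusted p = 0.273). Mrpl34 measured 10.03, 10.72 and 10.88 with DSS and MTA and 8.93, 10.23 and 10.56 with DSS (0.61 ± 0.25, SE; limma adjusted p = 0.285). All 6 DSS with MTA arrays were above the DSS mean in each of these genes, yet the ranges overlapped. In Mrpl14, DSS 2 and DSS 4 were at 9.68 and 9.82, and DSS 6 was at 11.18, above every DSS with MTA array.

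Mrps34, a mitochondria-specific small subunit protein, had a difference of 0.34 ± 0.14, and Mrpl54, of the large subunit, one of 0.54 ± 0.23 (SE; limma adjusted p = 0.286 and 0.293). Mrpl58, a peptidyl-tRNA hydrolase built into the large subunit, had 0.40 ± 0.17, and Mrps16, a small subunit protein of bacterial origin, 0.49 ± 0.21 (SE; limma adjusted p = 0.295 and 0.299). In these 4 genes too, all 6 DSS with MTA arrays were above the DSS mean. Of the 5 members with a lower mean, Mrpl57 had -0.11 ± 0.11, Mrpl51 -0.04 ± 0.10, Mrps2 -0.02 ± 0.16 and Mrpl50 -0.01 ± 0.13 (SE), and Mrpl35 was nearly at 0. The other kept probes of Mrpl51 gave 0.27 and 0.04, so its sign depended on the probe. Mrps2 is a small subunit protein of bacterial origin, and Mrpl57, Mrpl51 and Mrpl50 are mitochondria-specific large subunit proteins.

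Of the stalk genes, Mrpl12 differed between DSS with MTA and DSS by 0.42 ± 0.23, Mrpl11 by 0.25 ± 0.18 and Mrpl10 by 0.04 ± 0.11 (SE; limma adjusted p = 0.397, 0.516 and 0.884). The Mrps18 paralogs differed by 0.26 ± 0.17 for Mrps18a, 0.20 ± 0.22 for Mrps18b and 0.44 ± 0.24 for Mrps18c (SE; limma adjusted p = 0.465, 0.682 and 0.399). The 6 genes lower with DSS had differences between DSS with MTA and DSS of 0.06 to 0.26, smallest in Mrpl15 and largest in Mrpl4.

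Averaged over members, the DSS with MTA arrays 1 to 6 were at 0.05, -0.44, -0.15, 0.11, -0.30 and -0.03 relative to the control mean. Their group mean was -0.13 ± 0.21, against -0.39 ± 0.36 on DSS arrays (SD, n = 6 each). The ranges overlapped, with 2 DSS arrays below every DSS with MTA array and DSS with MTA 2 and 5 in the middle of the DSS group. Smooth muscle markers averaged 0.74 and 0.71 above the control mean on DSS with MTA 2 and 5, against 0.84 on DSS 2, and -0.08 to 0.38 on the other 9 treated arrays, DSS 4 included at 0.36. The control arrays ran from -0.18 to 0.21 for that list. Fibroblast markers averaged 0.90 and 0.74 on DSS with MTA 2 and 5, against -0.22 to 0.14 on the other DSS with MTA arrays. The arrays with the lowest members in the DSS with MTA group were thus the highest in both lists, and the part of these cells in the members' levels was not tested. Without DSS 2 the median difference over members was 0.16, and without DSS 2 and DSS 4 it was 0.07, with 50 of 70 members above 0.

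The third comparison set DSS with MTA against untreated control. Of the 70 members, 56 were below 0, against 53.1% of all features, with a median of -0.15 against -0.02. No member passed the adjusted threshold by limma, against 1.69% of all features lower and 2.9% higher. At an unadjusted p under 0.05, 5 members (7.14%) were lower, against 10.7% of all features, and none was higher, against 9.96%. In 1 member (1.43%, against 3.58% of all features) every DSS with MTA array was below every control array, and in none was every one above, against 4.4%. This was Mrpl36, a small large-subunit protein of bacterial origin, which averaged 11.88 ± 0.17 with DSS and MTA and 12.12 ± 0.01 in control (SD, n = 6 and 4), with a difference of -0.24 ± 0.17 (SE; limma adjusted p = 0.440).

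Mrpl35 had the smallest p in this comparison. It measured 7.21, 7.49 and 7.80 (lowest, median and highest) with DSS and MTA, against 7.75, 7.86, 7.86 and 7.80 in control, and the difference was -0.34 ± 0.11 (SE; limma adjusted p = 0.0913). In 5 of 6 DSS with MTA arrays it was below every control array. Its difference from control was -0.33 with DSS alone, so it lay at the same distance below control in both treated groups, which share their control arrays.

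Mrpl15 measured 7.38, 7.98 and 8.28 with DSS and MTA, against 8.54, 8.22, 8.28 and 8.35 in control (-0.45 ± 0.16, SE; limma adjusted p = 0.124). Mrpl57 measured 6.72, 6.84 and 7.24 with DSS and MTA, against 7.12, 7.29, 7.22 and 7.25 in control (-0.31 ± 0.12, SE; limma adjusted p = 0.139). In both, 5 of 6 DSS with MTA arrays were below every control array. Mrps23 and Mrpl49, lower with DSS, had differences of -0.28 ± 0.11 and -0.24 ± 0.11 here (SE; limma adjusted p = 0.142 and 0.228), and Mrps2, Mrpl39 and Mrps9 had -0.35, -0.22 and -0.30. All 6 DSS with MTA arrays of Mrps23, Mrpl49, Mrpl39 and Mrps9 were below the control mean.

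Of the 14 members above 0, those with the smallest p were Mrps6, Mrpl54, Mrps34 and Mrpl33. Mrps6, a small subunit protein of bacterial origin, had a difference of 0.28 ± 0.25, Mrpl54 one of 0.28 ± 0.26, Mrps34 one of 0.16 ± 0.16 and Mrpl33, a large subunit protein of bacterial origin, one of 0.25 ± 0.30 (SE), all with limma adjusted p-values of 0.571 or above. The stalk genes Mrpl12, Mrpl11 and Mrpl10 had -0.20, -0.20 and -0.09, and Mrps18a, Mrps18b and Mrps18c had -0.10, -0.02 and 0.19. The values of Mrps6 ran from 10.35 to 11.68 with DSS and MTA, with the highest on DSS with MTA 2, the array on which 66 of the 70 members were below their control mean.

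Where several probes of a member were kept, they were compared with one another. This held for 20 members. Their probes had the same sign in all 20 for DSS against control, in 18 for DSS with MTA against DSS and in 16 for DSS with MTA against control. The widest gap between probes of a gene was 0.20 on the log2 scale in Mrps25 for the first comparison, 0.33 in Mrps25 for the second and 0.32 in Mrps7, a small subunit protein whose bacterial counterpart starts assembly of the subunit's head, for the third.

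Other genes that make or serve the mitochondrial ribosome were described in the same way, beside 5.89% of all features lower with DSS. Of the proteins of the ribosome that carry other symbols, 3 were tested: Dap3 had a log2 difference of -0.22 ± 0.11, Ptcd3 of -0.38 ± 0.15 and Chchd1 of -0.41 ± 0.23 (SE), and none passed by limma. Of 19 tested genes for assembly of the ribosome, 3 were lower (median -0.22): Mpv17l2, needed for assembly of the ribosome, by -0.53 ± 0.13, Mrm1, which methylates the large ribosomal RNA, by -0.43 ± 0.12, and Rbfa, a maturation factor of the small subunit, by -0.35 ± 0.10 (SE; limma adjusted p = 0.0155, 0.0236 and 0.0246). Of 10 mitochondrial translation factors, Mrrf, which recycles ribosomes after termination, was lower (-0.31 ± 0.09, SE; limma adjusted p = 0.0309), and the list's median was -0.32.

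Of 13 genes that charge mitochondrial transfer RNAs, 2 were lower (median -0.33), Qrsl1, a subunit of the glutaminyl amidotransferase, and Fars2, the phenylalanyl-tRNA synthetase, by -0.52 ± 0.14 and -0.50 ± 0.13 (SE; limma adjusted p = 0.0191 and 0.0204). Of 14 genes for keeping and transcribing the mitochondrial genome, 4 were lower (median -0.37). They were Polg2 and Polg, the accessory and catalytic subunits of the DNA polymerase, the helicase Twnk and the RNA polymerase Polrmt, with differences of -0.71 ± 0.14, -0.38 ± 0.09, -0.48 ± 0.15 and -0.38 ± 0.12 (SE; limma adjusted p = 0.00425, 0.0123, 0.0432 and 0.0419). Of 8 regulators of mitochondrial biogenesis, the coactivator Ppargc1a was lower by limma (-1.04 ± 0.28, SE; adjusted p = 0.0236), while the list's median was 0.01. Of 19 genes for import and folding none passed by limma (median -0.27), with 3 lower at an unadjusted p under 0.05, against 16.1% of all features.

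The list for the respiratory chain, whose mitochondrially encoded subunits these ribosomes make, had 19 of 81 nuclear genes lower with DSS (23.5%, against 5.89% of all features) and a median of -0.47. Of the 56 genes in the cytosolic ribosomal protein list 3 were lower and 1 was higher, with a median of -0.44, close to that of the mitochondrial ribosomal proteins. Of 16 cytosolic translation factors 1 was lower, with a median of -0.08. Of 8 proliferation markers 3 were lower, Pcna, Mcm3 and Mcm5, with a median of -0.68, and on DSS with MTA 2 these markers averaged -1.88 relative to control. The part of proliferating cells in the members' values was not tested. Of 12 colon epithelium markers 1, the junction protein Cldn7, was lower with DSS (-0.31 ± 0.09, SE; limma adjusted p = 0.0390), and the list's median was 0.06.

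With DSS and MTA against DSS, the medians of these lists did not all follow the members. The respiratory chain had a median of 0.38, the cytosolic ribosomal proteins 0.30 and import and folding 0.26, beside 0.27 for the mitochondrial ribosomal proteins. The biogenesis regulators had 0.12. Assembly factors had 0.05, transfer RNA charging 0.06, the mitochondrial genome list 0.04 and the translation factors 0.11. No gene of the lists just given passed by limma in that comparison. At an unadjusted p under 0.05, 6.5% of all features were higher. The numbers higher in the lists were 31 of 81 for the respiratory chain, none of 56 for cytosolic ribosomal proteins, 1 of 19 for assembly, 1 of 13 for charging, none of 14 for the mitochondrial genome and none of 10 for translation factors. They were 2 of 19 for import and folding and 1 of 8 for biogenesis regulators. Against control, Polg2 and Mrm1 remained lower with DSS and MTA (-0.67 ± 0.14 and -0.49 ± 0.12, SE; limma adjusted p = 0.0143 and 0.0257). Among the colon epithelium markers, Cldn7, a tight junction protein, was higher with DSS and MTA than with DSS (0.42 ± 0.08, SE; limma adjusted p = 0.0441). The differences between lists were not tested.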

How the data were processed

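Total RNA of whole colon was amplified, labelled with biotin and hybridised to 1-colour Illumina arrays, per the labels' protocols. The values used are the authors' deposited probe intensities on a linear scale, which they had normalized between arrays by a method that the sources used here do not name. The arrays' number limits the precision. Here log2 of the deposited intensities was taken with no further normalization. The 32 columns of the un-normalized table, named by array position only, were given to no sample and not used, so slides could not be tested.

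Samples were grouped by title. Probes in the upper 50% by mean were kept (12848, mean log2 intensity from 6.82), then the probe with the highest mean per gene symbol, which left 9770 features. Of all probes 23978 had 1 symbol and 1719 none. The gene identifiers of all 76 members were found in RefSeq (GRCm38.p6), with 0 symbols changed. Comparisons were fitted with limma 3.58.1 in R 4.3.3 (group means over 16 arrays, two-sided, Benjamini-Hochberg, threshold 0.05), and the steps were tested on simulated data. Differences and standard errors are those of the fit on the log2 scale.

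The members, lists and tests were chosen with earlier results of these data known. Named per comparison are the members of smallest p, up to 8 in the majority's direction and up to 4 in the other, the Mrps18 paralogs and the stalk genes, and of each list up to 4 genes with the smallest p. Mrpl30, Mrpl36, Mrpl46, Mrpl52, Mrps7 and Mrps11 were named after their values were seen. Alternatives covered filter, probe choice, scaling, background, array weights, variance model, samples in the fit, blocks and left-out arrays.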

Additional observations from a re-analysis of the deposited data

Results flagged for a closer look

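Among 90 groups of arrays, of 29 named members and of the mean over members, 2 had an array far from the rest of its group, and chance alone marks about 1 in 20 groups. In control, Mrpl48 was lowest on control 1 at 10.06, with the next array at 10.38, and this gap took up 0.980 of the group's range. Without control 1, Mrpl48 kept its call against DSS. In control, Mrpl49 was lowest on control 4 at 10.79, with the next array at 10.92, a gap of 0.831 of the range. Without control 4, Mrpl49 kept its call as well.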

How the results depend on the processing

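For DSS against control, at least 59 of 70 members were below 0 in every setting run (73 of 76 with no filter and 60 of 60 in the upper 25% of probes). In that comparison the 6 members called lower became 31 with array weights (44.3%, against 13.3% of all features), 0 within the first 8 samples by accession, 0 within the last 8, an assumed split since slides are unknown, and 0 without DSS 2 and DSS 4. In these fits without a call, 0.0512%, 0.225% and 2.89% of all features were lower. Leaving out 1 array at a time gave 2 to 12. Without control 3 it was 2 (2.86%, against 2.7% of all features). It was 3 (4.29%) without DSS 2, DSS 4, control 1 or control 4, against 4.22%, 3.73%, 3.83% and 3.17% of all features. It was 11 without DSS with MTA 2 (15.7%, against 7.48%) and 12 without DSS 1 (17.1%, against 6.13%). The count stayed within 1.5 times of 6 under quantile normalization, normexp, a mean over probes, no filter on dim probes, the upper 25% of probes, an intensity trend, the fit of the groups compared and a block by accession order. In these settings 5.26% to 10% of the members were lower, against 2.82% to 6.87% of all features. All features called numbered 1423, and 844 in the upper 25% of probes, 2577 with array weights, 72 and 110 within the first and last 8 samples, 811 without DSS 2 and DSS 4, and 798 to 1716 leaving out 1 array. For DSS with MTA against DSS the 37 features became 5, 224, 0 and 0, and 12 under the same settings, 0 with the groups compared alone, 21 with the block by accession order, 66 without DSS 2 and DSS with MTA 2, and 5 to 215 leaving out 1 array. For DSS with MTA against control the 448 features became 289, 1088, 2 and 37 under the first 4 of these settings, and 160 to 720 leaving out 1 array. In that comparison the count of members lower was 1 with array weights and 0 to 1 leaving out 1 array. The share of all features lower was not worked out for those fits. The causes of these changes were not tested, and some settings also held fewer arrays or features. Both pairs of arrays left out together were chosen after seeing the data. The medians over members were -0.47 to -0.30, 0.16 to 0.34 and -0.21 to -0.08 for the 3 comparisons leaving out 1 array.

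Whether the replicate numbers pair the samples was not settled. Of 14 same-numbered pairs, 7 had correlated deviations above 0.1 (-0.31 to 0.62), and 6 matched their own number best. Replicate 1 had 0.37 for DSS and control, 0.62 for DSS with MTA and DSS, and 0.42 for DSS with MTA and control. For replicate 4 the same values were -0.07, -0.003 and -0.31. With the replicate number as a block, 13 members (18.6%, against 7.13% of all features) were called lower for DSS against control, 5 of them among the 6. With that block 2 members were called lower for DSS with MTA against control, where the share of all features lower was not worked out. For DSS with MTA against DSS, 253 features passed.

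No member turned sign in a comparison in which it was called. Over all members, 12 turned in at least 1 setting for DSS against control, 24 for DSS with MTA against DSS and 20 for DSS with MTA against control. Without DSS 2 and DSS 4, 11 and 15 turned in the first and second comparison, with reported differences of up to -0.38 and 0.42. Leaving out 1 array turned at most 2, 4 and 7. Among the named members, for DSS against control without DSS 2 and DSS 4 these were Mrps18b (0.015) and Mrps18c (0.15). For DSS with MTA against DSS it was Mrpl51 with the mean over probes (0.091), Mrpl51, Mrps2 and Mrpl50 with array weights (0.020, 0.047 and 0.065), Mrps18b and Mrpl10 within the first 8 samples (-0.086 and -0.063), Mrpl57, Mrpl51, Mrps2 and Mrpl50 within the last 8 (0.0095, 0.070, 0.072 and 0.13), Mrps18b without DSS 2 and DSS 4 (-0.036), and Mrpl51 and Mrpl50 without DSS 2 and DSS with MTA 2 (0.018 and 0.043). For DSS with MTA against control it was Mrps18b and Mrpl10 with array weights (0.11 and 0.018), Mrps6, Mrpl33, Mrps18b and Mrpl10 within the last 8 samples (-0.018, -0.098, 0.16 and 0.072), and Mrps18b without DSS 2 and DSS with MTA 2 (0.13). Leaving out 1 array, Mrpl10 ran from -0.012 to 0.11, Mrpl50 from -0.060 to 0.088 and Mrps2 from -0.11 to 0.066 for DSS with MTA against DSS, and Mrps18b from -0.10 to 0.13 for DSS with MTA against control.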
